A study of Mus musculus with 24 samples.

Results

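The genes described here carry fatty acids from the blood to the mitochondrial matrix of the heart, oxidise them there, and set how much of that is done. They are 47 genes, chosen by symbol from a list that follows the route of a fatty acid, among the 40840 gene symbols in the count table. All 47 were found, and all 47 passed the filter on low counts, with 22 reads as the smallest count of any member in any mouse. The source was the heart apex of 24 mice, all wild type and of strain C57/Bl6J, whose RNA was sequenced. The animals underwent either sham surgery or transverse aortic constriction (TAC), in which the aorta is tied over a 25-gauge needle so that the left ventricle pumps against a higher pressure, and lived in normoxia or in hypoxia. The 4 groups of 6 mice were therefore normoxia sham, normoxia TAC, hypoxia sham and hypoxia TAC, and all hearts were taken on day 3. Libraries came from 100 ng of total RNA of the apex, so muscle cells, vessel cells and other cells of that tissue were measured together. The labels used here give no oxygen level, no duration of hypoxia, no sex, no age, no hour of harvest and no batch.

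Heart muscle draws most of its fuel from long-chain fatty acids. Lipoprotein lipase frees them at the vessel wall, carriers bring them into the muscle cell, acyl-CoA synthetases activate them, the carnitine shuttle moves them into mitochondria, and the enzymes of beta-oxidation cut them to acetyl-CoA. PPAR-alpha, a nuclear receptor that fatty acids activate and that binds DNA with RXR, switches on genes all along this route, together with the coactivators PGC-1 alpha and PGC-1 beta and the estrogen-related receptor alpha. A loaded heart is known for lowering this programme and leaning more on glucose.

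Total counts per library ran from 10136915 to 15058159, and 15027 genes passed the filter. The 47 members held 3.48% to 3.90% of all counts in the normoxia sham mice, 2.12% to 3.80% in the normoxia TAC mice, 3.22% to 3.41% in the hypoxia sham mice and 2.63% to 3.41% in the hypoxia TAC mice. The TAC mice varied more among themselves: the median standard deviation of a member's log2 level was 0.12 in normoxia sham and 0.10 in hypoxia sham, against 0.42 in normoxia TAC and 0.30 in hypoxia TAC, and it was larger after TAC in 46 of 47 members at either oxygen condition. This was not particular to the members. Over all genes the median was 0.17 in normoxia sham and 0.18 in hypoxia sham, against 0.41 in normoxia TAC and 0.32 in hypoxia TAC. Normoxia TAC mouse 2 stood apart, with the lowest level of its group in 30 of the 47 members and with a summed level of 13 cardiomyocyte markers of 46661 CPM (a gene's reads scaled to the size of its library), where the group median was 79506. The 6 load-responsive stress genes summed to 3873 to 22151 CPM in normoxia TAC against 1616 to 2833 in normoxia sham, and to 1942 to 12254 in hypoxia TAC against 2143 to 3371 in hypoxia sham, so the groups lay apart in normoxia and overlapped in hypoxia. Nothing in the labels says how the mice of a group were raised or operated on relative to one another. The tests treated each mouse as independent, which could not be checked. They set a difference of group means against a spread shared over all 4 groups, although the TAC mice varied more.

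The question of the first comparison was what TAC did to this route by day 3 in normoxia. Called lower were 4 of 5 genes of the carnitine shuttle, 6 of 15 of beta-oxidation and both of malonyl-CoA handling. So were 2 of 3 thioesterases, 3 of 6 regulators, 1 of 5 uptake genes and 1 of 4 activation genes. The rest were 1 of 4 genes of fuel choice and uncoupling and 1 of 3 lipid droplet genes. Called higher were 2 of the activation genes and 1 of the lipid droplet genes. By edgeR's quasi-likelihood test with Benjamini-Hochberg adjusted p under 0.05, 21 of 47 members were called lower and 3 higher, and the 21 log2 changes ran from -1.46 to -0.28. Of all 15027 genes, 10.6% were called lower and 16.8% higher. The median log2 change was -0.28 over the members and 0.01 over all genes, 34 members had a log2 change below 0, and in 13 members (27.7%) the 6 TAC mice did not overlap the 6 sham mice, against 8.90% of all genes. Without normoxia TAC mouse 2, 19 members were called lower and 4 higher, and without normoxia sham mouse 2 the higher calls fell to 1. The split of calls over all genes, 1593 lower and 2521 higher, was 2450 lower and 1629 higher with library totals and 732 lower and 1875 higher with cardiomyocyte scaling.

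**Figure D1:**
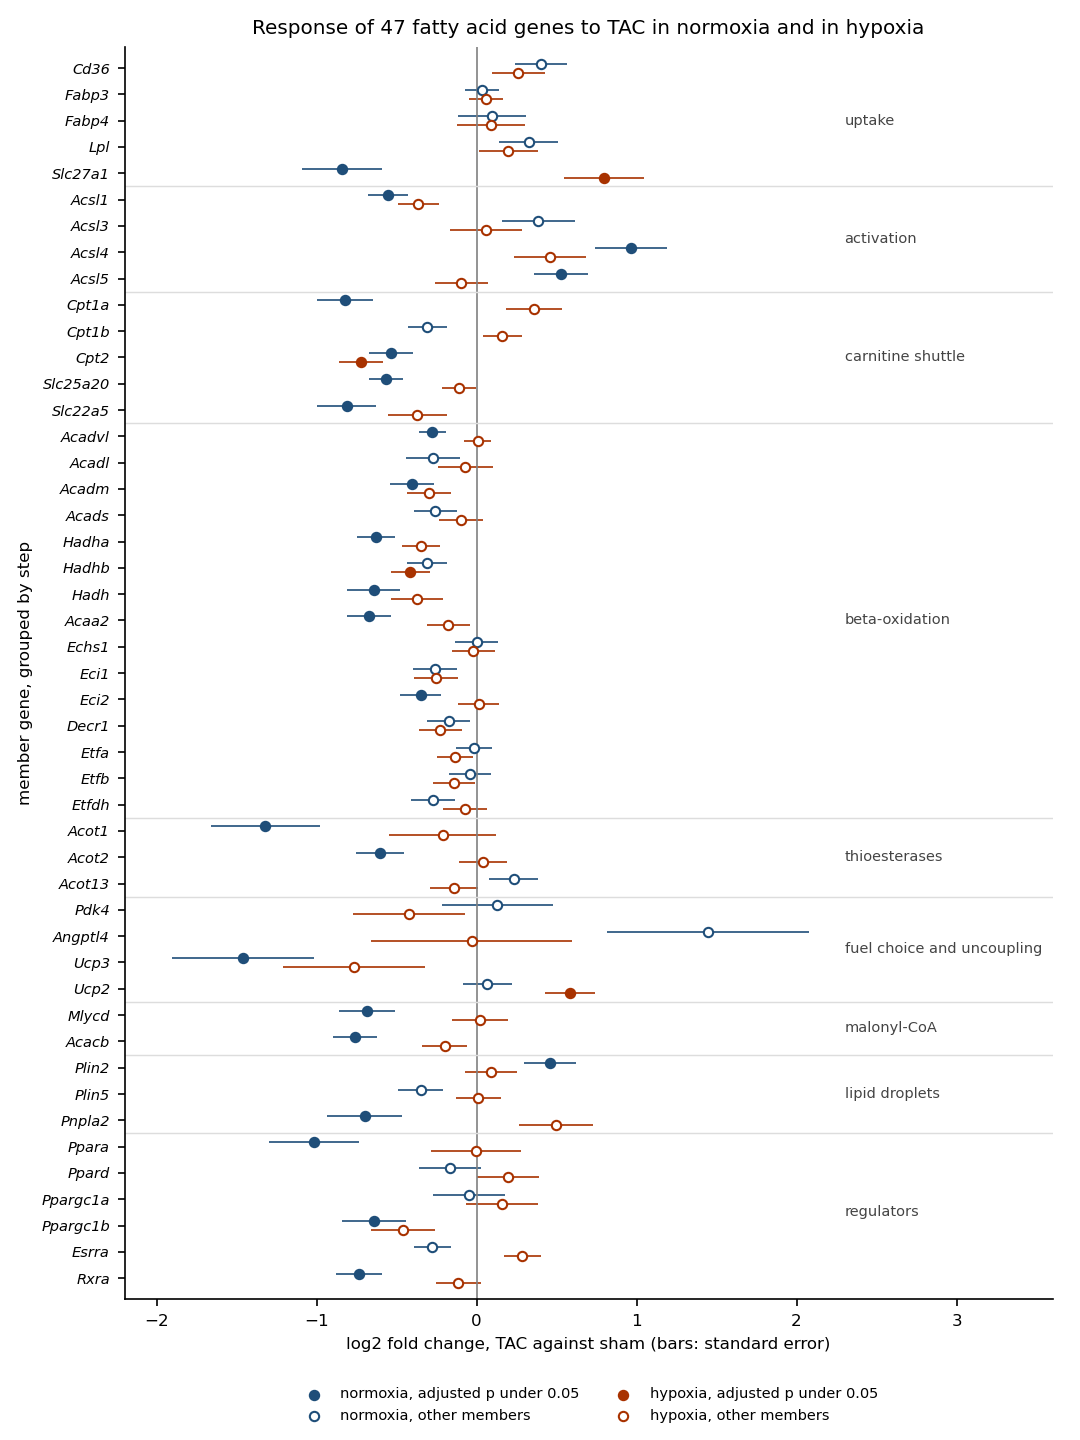
Each point is the log2 fold change of TAC against sham for 1 of the 47 members, in normoxia (blue) and in hypoxia (red), with its standard error, in the order of the route from uptake to regulators. Filled points passed the adjusted p of 0.05, which 24 members did in normoxia and 4 in hypoxia; Slc27a1 is the member with filled points on both sides of 0.

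Cd36, the main carrier of long-chain fatty acids across the muscle and vessel cell membrane, was at 2479.6 to 2764 CPM (median 2533) in normoxia sham mice and 2003 to 5268 CPM (median 3095) in normoxia TAC mice. In those mice its log2 change was 0.40 ± 0.17, adjusted p = 0.0701, and the ranges overlapped. Lpl, the lipase that frees fatty acids from lipoproteins, was at 4655 to 5682 CPM (median 5419.6) in normoxia sham mice and 3475 to 10691 CPM (median 5738) in normoxia TAC mice, with a log2 change of 0.33 ± 0.19, adjusted p = 0.189. The TAC mice spread on both sides of the sham range for both genes. Fabp3, the fatty acid binding protein of heart muscle, was at 3004 to 3221 CPM (median 3100.0) in normoxia sham mice and 2206 to 4042 CPM (median 3229.6) in normoxia TAC mice, a log2 change of 0.03 ± 0.10, adjusted p = 0.835. Fabp4, a binding protein of vessel cells, macrophages and fat cells, was at 459.8 to 573 CPM (median 533) in normoxia sham mice and 151 to 733 CPM (median 632) in normoxia TAC mice, a log2 change of 0.10 ± 0.21, adjusted p = 0.766. These 4 genes did not pass the test, and for Fabp4 mouse 2 alone lay far under the other TAC mice. Slc27a1, which encodes the transporter FATP1 that couples uptake to activation, was the exception. It was at 168 to 274 CPM (median 235) in normoxia sham mice and 78.9 to 167 CPM (median 137) in normoxia TAC mice. All 6 TAC mice lay under all 6 sham mice, and the log2 change was -0.84 ± 0.25, adjusted p = 0.0158.

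Activation, the joining of a fatty acid to coenzyme A, moved in both directions. Acsl1, the main synthetase of heart muscle, was at 766 to 1012 CPM (median 837) in normoxia sham mice and 331 to 695 CPM (median 622) in normoxia TAC mice. The groups did not overlap and the log2 change was -0.55 ± 0.13, adjusted p = 0.00328. Acsl4, which prefers arachidonic acid and other polyunsaturated fatty acids, was at 20.9 to 25.6 CPM (median 21.9) in normoxia sham mice and 26.3 to 77.6 CPM (median 33.7) in normoxia TAC mice. Here every TAC mouse was above every sham mouse, with a log2 change of 0.96 ± 0.22, adjusted p = 0.00355. Acsl5, another synthetase of long-chain fatty acids, rose by a log2 change of 0.53 ± 0.17, adjusted p = 0.0216, and Acsl3 had 0.39 ± 0.23, adjusted p = 0.209.

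**Figure D2:**
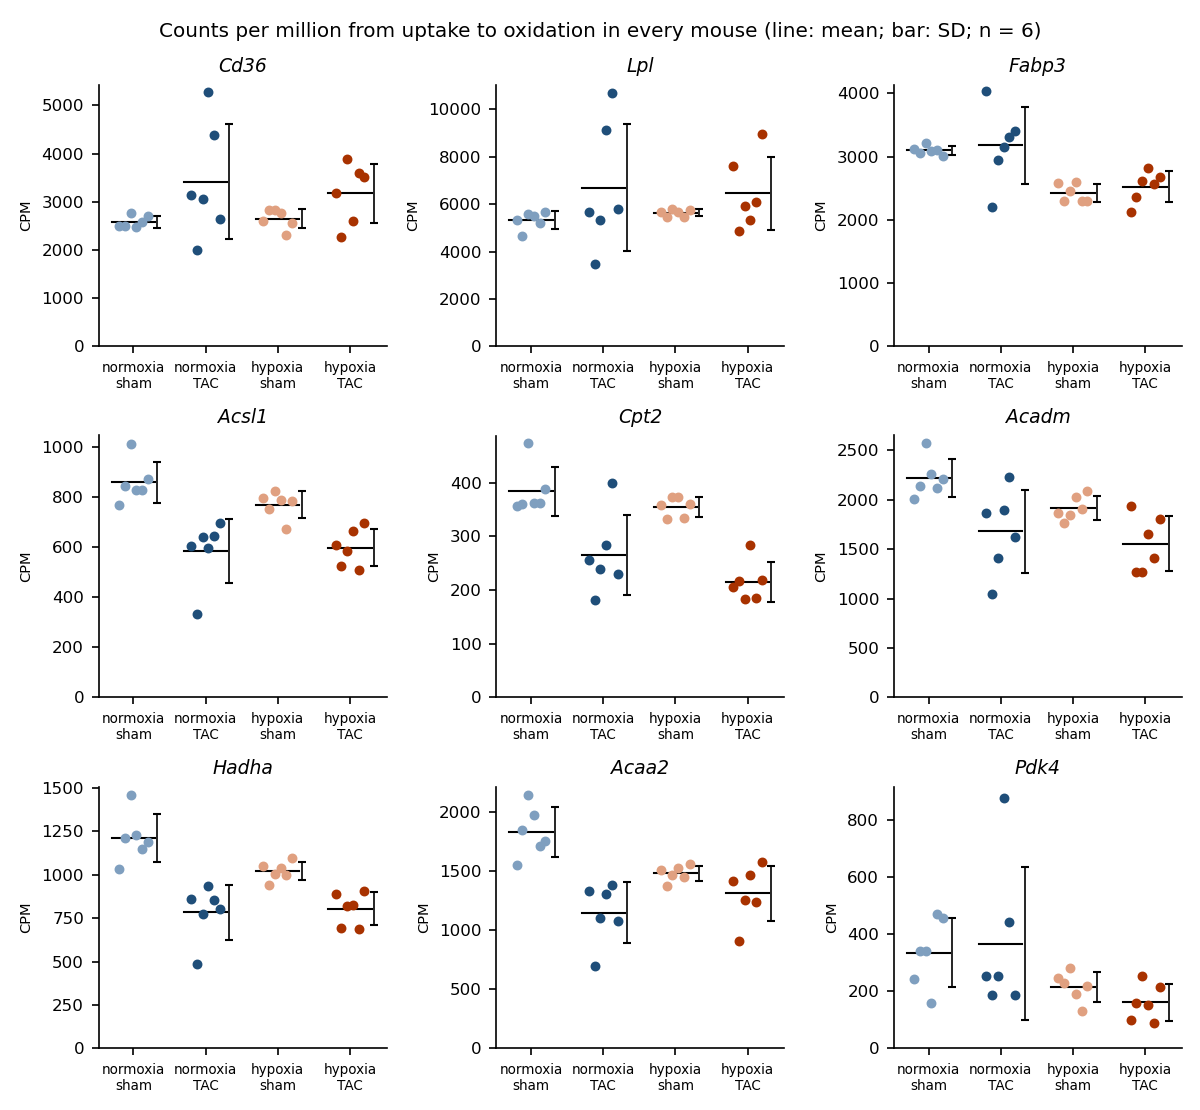
Levels in CPM in every mouse for 9 members from uptake (Cd36, Lpl, Fabp3) over activation (Acsl1), the carnitine shuttle (Cpt2) and beta-oxidation (Acadm, Hadha, Acaa2) to the switch away from glucose (Pdk4); the line is the mean and the bar the standard deviation of 6 mice. Normoxia TAC mice lie under normoxia sham mice for Acsl1, Hadha and Acaa2 and overlap them for Cd36, Lpl and Fabp3.

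The carnitine shuttle was lower as a group: 4 of its 5 members were called lower in normoxia TAC and the fifth, Cpt1b, had a log2 change of -0.31 ± 0.12, adjusted p = 0.0626. Cpt1a, the liver-type gene for the enzyme that loads fatty acids onto carnitine at the outer membrane, was at 37.9 to 43.8 CPM (median 40.4) in normoxia sham mice and 15.1 to 32.5 CPM (median 23.6) in normoxia TAC mice. The groups lay apart, and the log2 change was -0.82 ± 0.18, adjusted p = 0.00213. Cpt1b, the muscle-type gene for the same step, was at 25.1 to 30.05 CPM (median 27.6) in normoxia sham mice and 16.4 to 27.3 CPM (median 22.7) in normoxia TAC mice, and its groups overlapped. In the GENCODE annotation at hand 93.0% of the 50-base windows of its longest coding transcript also lie in a transcript of Gm44502, so its reads could not be assigned with certainty. Slc25a20, the exchanger that carries acylcarnitine across the inner membrane, was at 445 to 496 CPM (median 471) in normoxia sham mice and 255 to 368 CPM (median 326) in normoxia TAC mice, a log2 change of -0.57 ± 0.11, adjusted p = 0.000827 between groups that did not overlap. Cpt2, which hands the fatty acid back to coenzyme A on the inside, fell, with a log2 change of -0.53 ± 0.14, adjusted p = 0.00696. Slc22a5, the carnitine importer of the cell membrane, fell, with a log2 change of -0.81 ± 0.18, adjusted p = 0.00297; 26.9% of its windows are shared with Slc22a21.

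In beta-oxidation 6 of 15 members were called lower and none higher, and 14 of 15 had a log2 change below 0 (15 with library totals, 13 with cardiomyocyte scaling). Among the first-step dehydrogenases, Acadvl, the enzyme for very long chains, which shares sequence with Dvl2, fell, with a log2 change of -0.28 ± 0.09 (adjusted p = 0.0197). Acadm, the medium-chain enzyme, was at 2007 to 2574 CPM (median 2174) in normoxia sham mice and 1043 to 2229 CPM (median 1746) in normoxia TAC mice, a log2 change of -0.40 ± 0.14, adjusted p = 0.0327 with overlapping groups. Acadl and Acads, for long and short chains, had log2 changes of -0.27 ± 0.17 and -0.26 ± 0.14 and did not pass the test. Hadha, the alpha subunit of the trifunctional protein, was at 1036 to 1459.7 CPM (median 1200.3) in normoxia sham mice and 483 to 936 CPM (median 828) in normoxia TAC mice. All TAC mice lay under all sham mice, with a log2 change of -0.63 ± 0.12, adjusted p = 0.000926. Its partner Hadhb was at -0.31 ± 0.12, adjusted p = 0.0666, and 61.5% of the windows of that transcript are shared with Gm13910. Hadh, the dehydrogenase of shorter chains, fell, with a log2 change of -0.64 ± 0.16, adjusted p = 0.00609.

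Acaa2, the thiolase that releases acetyl-CoA at the end of each round, was at 1553 to 2144 CPM (median 1799) in normoxia sham mice and 698 to 1385 CPM (median 1205) in normoxia TAC mice. The groups lay apart, and the log2 change of -0.67 ± 0.14, adjusted p = 0.00145 was the most negative of the 15. Eci2, an isomerase for unsaturated chains, fell, with a log2 change of -0.35 ± 0.13, adjusted p = 0.0432. The hydratase Echs1, the isomerase Eci1, the reductase Decr1 and the electron carriers Etfa, Etfb and Etfdh had log2 changes between -0.27 and 0.00. None of them passed the test. For Etfb, 67.3% of the windows of its longest coding transcript are shared with Gm45233, so its reads could not be assigned with certainty.

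Thioesterases split acyl-CoA again, and Acot1 and Acot2 are known PPAR-alpha targets. Acot1, the cytosolic enzyme, was at 23.5 to 42.8 CPM (median 32.5) in normoxia sham mice and 3.77 to 24.4 CPM (median 12.5) in normoxia TAC mice. Its log2 change was -1.32 ± 0.34, adjusted p = 0.0072. Acot2, its mitochondrial neighbour, was at 180.3 to 227 CPM (median 186) in normoxia sham mice and 91.6 to 169 CPM (median 121) in normoxia TAC mice, a log2 change of -0.60 ± 0.15, adjusted p = 0.00527 between groups that lay apart. The 2 transcripts share sequence (23.9% of the windows of Acot1 lie in Acot2), so the split of reads between them was uncertain. Acot13 had a log2 change of 0.23 ± 0.15, adjusted p = 0.26.

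Ucp3, the muscle uncoupling protein whose gene follows fatty acid supply, was at 84.9 to 201 CPM (median 119.6) in normoxia sham mice and 10.8 to 108 CPM (median 39.1) in normoxia TAC mice. The lowest sham mouse lay under the highest TAC mouse, and the log2 change of -1.46 ± 0.45 (adjusted p = 0.0189) was the most negative of all 47 members. Ucp2, the more widely expressed uncoupling protein, was at 40.5 to 51.8 CPM (median 47.2) in normoxia sham mice and 31.3 to 68.1 CPM (median 43.8) in normoxia TAC mice, a log2 change of 0.07 ± 0.15, adjusted p = 0.779. Pdk4, the kinase that shuts pyruvate dehydrogenase and so favours fatty acids over glucose, was at 157 to 469.6 CPM (median 340.5) in normoxia sham mice and 188 to 877 CPM (median 252) in normoxia TAC mice, a log2 change of 0.13 ± 0.35, adjusted p = 0.812. Mouse 4 held the highest Pdk4 level of the TAC mice, and the next was at 443 CPM. Angptl4, the secreted inhibitor of lipoprotein lipase, was at 4.89 to 25.4 CPM (median 14.9) in normoxia sham mice and 6.38 to 114 CPM (median 24.8) in normoxia TAC mice, a log2 change of 1.45 ± 0.63, adjusted p = 0.0905. Pdk4 and Angptl4, which are PPAR-alpha targets too, had log2 changes above 0 that did not pass the test, and that of Pdk4 was -0.07 with library totals.

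Both members of malonyl-CoA handling fell. Acacb makes malonyl-CoA, which blocks CPT1, and was at 217 to 266 CPM (median 249) in normoxia sham mice and 105 to 202 CPM (median 142) in normoxia TAC mice. Its groups lay apart, with a log2 change of -0.76 ± 0.14, adjusted p = 0.000635. Mlycd, which degrades malonyl-CoA, fell, with a log2 change of -0.69 ± 0.18, adjusted p = 0.0066. On the surface of lipid droplets, Plin2 was at 97.96 to 119.8 CPM (median 113) in normoxia sham mice and 97.3 to 219 CPM (median 142) in normoxia TAC mice and rose by 0.46 ± 0.16, adjusted p = 0.037. Plin5, the perilipin of oxidative tissue, had -0.35 ± 0.14, adjusted p = 0.0666. Pnpla2, the triglyceride lipase ATGL that supplies PPAR-alpha with ligands in the mouse heart, was at 329 to 404 CPM (median 358) in normoxia sham mice and 105 to 311 CPM (median 222) in normoxia TAC mice. Its groups lay apart, and the log2 change was -0.70 ± 0.23, adjusted p = 0.0286.

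Of the 6 regulators 3 were called lower, and all 6 had a log2 change below 0 (5 of 6 when scaled to cardiomyocyte markers). Ppara, the gene of PPAR-alpha, was at 101 to 146 CPM (median 139) in normoxia sham mice and 19.4 to 108 CPM (median 70.5) in normoxia TAC mice. TAC mice 1 and 5 lay just above the lowest sham mouse, and TAC mice 2 and 4 were the lowest. The log2 change was -1.02 ± 0.28, adjusted p = 0.0109. Rxra, its DNA-binding partner, was at 16.2 to 24.5 CPM (median 20.6) in normoxia sham mice and 10.99 to 15.5 CPM (median 11.4) in normoxia TAC mice, a log2 change of -0.73 ± 0.14, adjusted p = 0.00101 between groups that lay apart. Ppargc1b, the gene of PGC-1 beta, fell, with a log2 change of -0.64 ± 0.20, adjusted p = 0.0208. Ppargc1a, the gene of PGC-1 alpha, was at 116 to 142 CPM (median 127) in normoxia sham mice and 41.2 to 210.3 CPM (median 123) in normoxia TAC mice, a log2 change of -0.05 ± 0.22, adjusted p = 0.897 with the sham range inside the TAC range. Esrra was at 30.8 to 40.1 CPM (median 35.9) in normoxia sham mice and 20.1 to 35.5 CPM (median 28.7) in normoxia TAC mice (-0.28 ± 0.12, adjusted p = 0.0751), and Ppard, another PPAR, had -0.17 ± 0.19, adjusted p = 0.545.

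Some of the calls with TAC in normoxia did not hold in every fit with 1 library left out. Acadm (adjusted p up to 0.0782), Acsl5 (0.0810), Eci2 (0.0795), Plin2 (0.131), Pnpla2 (0.0545) and Ppargc1b (0.0532) lost their call when certain libraries were left out. Acadm lost it without any 1 of normoxia sham 3 and 6 or normoxia TAC 2, 3 and 6, Acsl5 without normoxia sham 2 or normoxia TAC 2 or 3, and Pnpla2 without normoxia sham 2 or normoxia TAC 2 or 6. Eci2 lost it without any 1 of normoxia sham 2 to 6 or normoxia TAC 2, 3, 4 and 6, Plin2 without any 1 of normoxia sham 1 to 4 and 6 or normoxia TAC 2 and 4, and Ppargc1b without normoxia TAC 4. Scaled to cardiomyocyte markers, Acadvl, Acot2, Acsl5, Plin2 and Ppargc1b were not called. Library totals ended the calls of Acsl5 and Plin2, RLE scaling that of Eci2, the absence of a low-count filter those of Acadvl, Eci2 and Pnpla2, and the fit of the 12 normoxia libraries those of Acadm, Eci2, Plin2, Ppara and Ppargc1b.

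Marker lists of other cell types and states were counted beside this comparison, where 10.6% of all genes were called lower and 16.8% higher. Of 12 macrophage and monocyte markers 11 were called higher, and their sum was 399 to 1097 CPM in normoxia TAC against 264 to 331 in normoxia sham. Of 10 endothelial markers 3 were called lower (745 to 848 CPM against 903 to 1006), of 13 cardiomyocyte markers 1 was called lower (46661 to 91441 against 85354 to 93280), and of 8 fibroblast markers 3 were called higher (2622 to 4441 against 3159 to 3590). The 13 clock genes, whose level follows the hour of the day, were called higher in 2 and lower in 7 (341 to 481 CPM against 564 to 723). The 6 adipocyte markers summed to 0.498 to 16.4 CPM in normoxia TAC against 0.246 to 5.85 in normoxia sham, and Plin1 was at 0 in 23 of 24 libraries. The mitochondrial ribosomal RNAs took 3.98% to 5.72% of counts in normoxia TAC and 2.93% to 3.71% in normoxia sham. The part of these differences in the members' changes was not tested, and in bulk tissue fewer cells of a type cannot be told apart from less RNA per cell.

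The second comparison set TAC against sham within hypoxia, in 12 other mice. Of the 47 members 2 were called lower and 2 higher. Of all genes, 4.68% were called lower and 6.46% higher. The median log2 change of the members was -0.07, against 0.01 over all genes, and under scaling to cardiomyocyte markers it turned to 0.04. In 4 members (8.51%) the groups did not overlap, against 5.67% of all genes. The log2 change was smaller in size than in normoxia for 35 of 47 members and for 8595 of all 15027 genes. Without normoxia TAC 2, whose group enters through the shared spread, 5 members were called lower, and without hypoxia TAC 3 none was called higher. Over all genes the split of 703 lower and 971 higher became 109 lower and 554 higher with cardiomyocyte scaling.

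Cpt2 was at 333 to 374 CPM (median 359) in hypoxia sham mice and 182 to 284 CPM (median 211) in hypoxia TAC mice. Its groups lay apart, and its log2 change of -0.72 ± 0.14 (adjusted p = 0.00393) came beside a fall in normoxia, from 356 to 473 CPM (median 362) to 181 to 400.0 CPM (median 248). Cpt2 was the only one of the 47 members called lower with TAC at both oxygen conditions. Hadhb, the thiolase subunit of the trifunctional protein, was at 1812 to 2080.5 CPM (median 1941) in hypoxia sham mice and 1217 to 1771 CPM (median 1407) in hypoxia TAC mice, a log2 change of -0.41 ± 0.12, adjusted p = 0.034 between groups that lay apart. This call was lost without any 1 of 9 of the 12 hypoxia libraries (sham 1 and 3 to 6, TAC 2, 3, 5 and 6), with adjusted p up to 0.0807, with cardiomyocyte scaling and without the low-count filter. Hadha was at 941 to 1095 CPM (median 1023) in hypoxia sham mice and 688 to 906 CPM (median 821) in hypoxia TAC mice, also apart, with -0.35 ± 0.12, adjusted p = 0.059. Acsl1 was at 674 to 825 CPM (median 786) in hypoxia sham mice and 508 to 698 CPM (median 596) in hypoxia TAC mice, with overlap and -0.36 ± 0.13, adjusted p = 0.0623.

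The 2 members that rose were a carrier and an uncoupling protein. Slc27a1 was at 102 to 153 CPM (median 135) in hypoxia sham mice and 97.03 to 406 CPM (median 229.8) in hypoxia TAC mice. TAC mice 2 and 4 lay within or under the sham range while the other 4 lay above it, and the log2 change was 0.79 ± 0.25, adjusted p = 0.0417. That call was lost without any 1 of 9 hypoxia libraries (sham 1 to 4 and 6, TAC 1, 3, 5 and 6), with adjusted p up to 0.125 and a log2 change down to 0.55, and also without the low-count filter, in the fit of the 12 hypoxia libraries and with the replicate block. Ucp2 was at 40.6 to 51.3 CPM (median 47.9) in hypoxia sham mice and 56.7 to 89.2 CPM (median 67.9) in hypoxia TAC mice. Every hypoxia TAC mouse was above every hypoxia sham mouse, a log2 change of 0.58 ± 0.15, adjusted p = 0.02; without hypoxia TAC 3 the adjusted p was 0.0559.

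The remaining members of the described panel did not pass the test in hypoxia. Cd36 was at 2311 to 2837 CPM (median 2685) in hypoxia sham mice and 2261 to 3879 CPM (median 3346) in hypoxia TAC mice, with a log2 change of 0.26 ± 0.17, adjusted p = 0.299. Fabp3 was at 2295 to 2597 CPM (median 2379.8) in hypoxia sham mice and 2119 to 2813 CPM (median 2585) in hypoxia TAC mice, with a log2 change of 0.06 ± 0.10, adjusted p = 0.739. Lpl was at 5464 to 5790.0 CPM (median 5679) in hypoxia sham mice and 4856 to 8977 CPM (median 6011) in hypoxia TAC mice, with a log2 change of 0.20 ± 0.19, adjusted p = 0.499. For these 3 uptake genes the TAC mice lay on both sides of the sham range. Fabp4 was at 511 to 712 CPM (median 603) in hypoxia sham mice and 595 to 741 CPM (median 655) in hypoxia TAC mice, with a log2 change of 0.09 ± 0.21, adjusted p = 0.808. All 5 uptake genes, Slc27a1 included, had log2 changes above 0 in hypoxia. Acadm, of medium-chain oxidation, was at 1760.1 to 2093 CPM (median 1885) in hypoxia sham mice and 1267 to 1935 CPM (median 1533) in hypoxia TAC mice, with a log2 change of -0.30 ± 0.14, adjusted p = 0.148. Cpt1b was at 23.9 to 25.95 CPM (median 24.5) in hypoxia sham mice and 20.99 to 35.6 CPM (median 28.1) in hypoxia TAC mice, with a log2 change of 0.16 ± 0.12, adjusted p = 0.399. The groups overlapped for both enzymes.

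Among genes tied closely to PPAR-alpha, Acot1 was at 18.03 to 26.3 CPM (median 21.3) in hypoxia sham mice and 6.01 to 33.98 CPM (median 18.7) in hypoxia TAC mice, with a log2 change of -0.21 ± 0.34, adjusted p = 0.71. Acot2 was at 109 to 137 CPM (median 121) in hypoxia sham mice and 93.6 to 176 CPM (median 113) in hypoxia TAC mice, with a log2 change of 0.04 ± 0.15, adjusted p = 0.889. Ucp3 was at 45.7 to 73.4 CPM (median 59.02) in hypoxia sham mice and 9.75 to 78.2 CPM (median 30.6) in hypoxia TAC mice, with a log2 change of -0.77 ± 0.44, adjusted p = 0.253. The hypoxia TAC mice spread beyond the sham range on both sides in each of these 3 thioesterase and uncoupling genes. Angptl4 was at 10.4 to 28.99 CPM (median 18.6) in hypoxia sham mice and 3.61 to 54.5 CPM (median 9.49) in hypoxia TAC mice, with a log2 change of -0.03 ± 0.63, adjusted p = 0.981. Pdk4 was at 129 to 279.9 CPM (median 223) in hypoxia sham mice and 87.8 to 252 CPM (median 155) in hypoxia TAC mice, with a log2 change of -0.42 ± 0.35, adjusted p = 0.436. Plin2 was at 98.8 to 136 CPM (median 126) in hypoxia sham mice and 109.6 to 165 CPM (median 128) in hypoxia TAC mice, with a log2 change of 0.09 ± 0.16, adjusted p = 0.75. Angptl4 was highest in TAC mouse 3, and the groups overlapped in all 3 of these genes. Esrra was at 26.8 to 31.8 CPM (median 29.7) in hypoxia sham mice and 27.6 to 40.5 CPM (median 36.8) in hypoxia TAC mice, with a log2 change of 0.28 ± 0.12, adjusted p = 0.101. Ppargc1a was at 131 to 154 CPM (median 139) in hypoxia sham mice and 116 to 228 CPM (median 151) in hypoxia TAC mice, with a log2 change of 0.16 ± 0.22, adjusted p = 0.67. Ppara was at 89.9 to 96.9 CPM (median 94.8) in hypoxia sham mice and 69.3 to 126 CPM (median 91.2) in hypoxia TAC mice, with a log2 change of -0.00 ± 0.28, adjusted p = 0.997. For Ppargc1a and Ppara the sham range lay inside the TAC range.

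Of 12 macrophage and monocyte markers 1 was called higher in hypoxia TAC (280 to 804 CPM against 331 to 426), of 10 endothelial markers 2 were called lower (798 to 1106 against 1120 to 1304), and of 13 cardiomyocyte markers 2 were called higher and 2 lower (70754 to 97424 against 85037 to 90452). Of 7 glucocorticoid-induced genes 6 were called higher (606 to 1634 CPM against 419 to 608), and of 13 clock genes 4 were called higher and 1 lower (394 to 513 against 337 to 401). Per1 stands in both lists, here and below, so these counts are not separate. Of 4 skeletal muscle markers tested 2 were called higher (4.64 to 11.3 CPM against 3.46 to 4.63), and of 7 red cell markers 2 (1390 to 5525 against 1072 to 2245). Of all genes, 4.68% were called lower and 6.46% higher, and the part of these lists in the members' changes was not tested.

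Whether the TAC response differed between oxygen conditions was tested as an interaction, the TAC change in hypoxia minus the TAC change in normoxia. In this test 2 members passed, both upward: Slc27a1 with 1.63 ± 0.35, adjusted p = 0.0221 and Cpt1a with 1.18 ± 0.25, adjusted p = 0.0193. Of all genes, 1.12% were called with a more positive response in hypoxia and 0.925% with a more negative one. Slc27a1 fell with TAC in normoxia and rose with it in hypoxia. Cpt1a fell in normoxia, and in hypoxia it was at 25.1 to 31.4 CPM (median 26.2) in hypoxia sham mice and 22.5 to 50.97 CPM (median 33.99) in hypoxia TAC mice, with overlapping groups and a log2 change of 0.36 ± 0.18, adjusted p = 0.173. The call of Slc27a1 held without each of the 24 libraries (adjusted p at most 0.0435) and that of Cpt1a likewise. Scaled to cardiomyocyte markers, Cpt1a lost its call while Slc27a1 kept it. Without hypoxia TAC 2, 11 members were called with a more positive response and 1 with a more negative one; without normoxia TAC 1 or 5, 7 and 4 were more positive. Over all genes 139 were more negative and 169 more positive, against 50 and 189 with library totals and 5 and 24 with cardiomyocyte scaling. The same interaction was called in 8 of 13 clock genes (6 more positive, 2 more negative), in 2 of 7 glucocorticoid-induced genes (more positive) and in 2 of 6 stress genes (more negative), and their part in the members' differences was not tested.

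**Figure D3:**
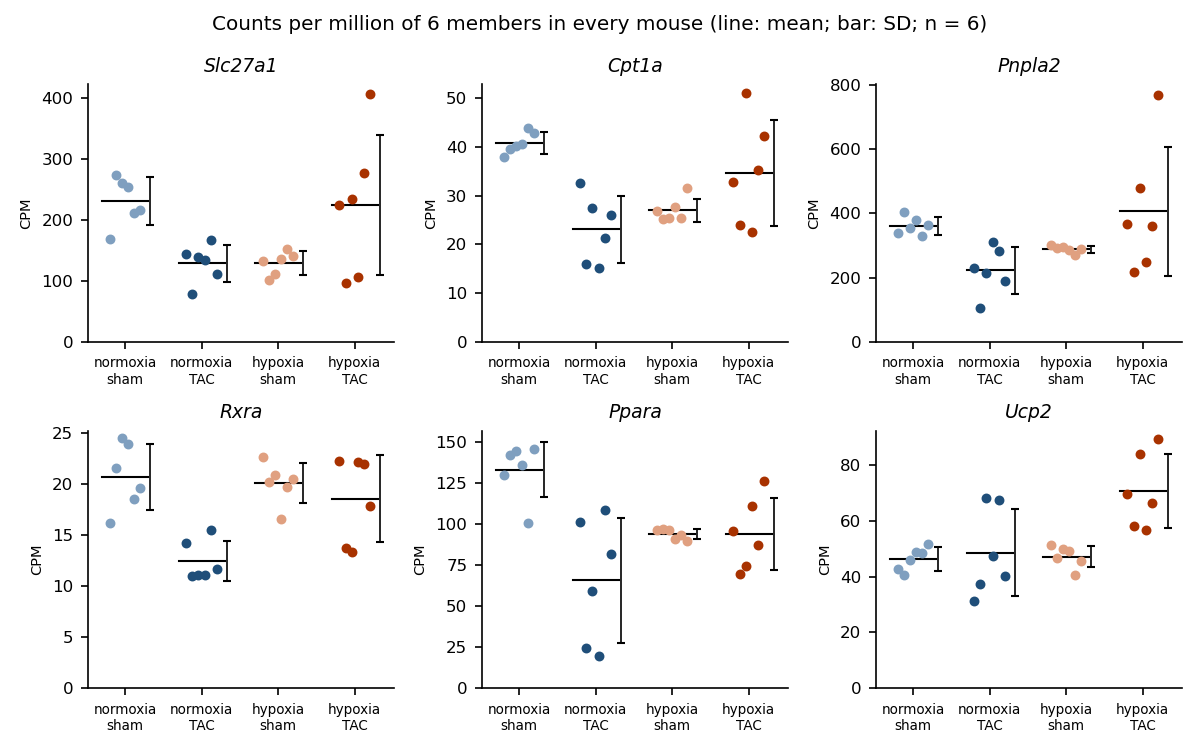
Levels in CPM in every mouse for Slc27a1 and Cpt1a, called in the interaction, and for Pnpla2, Rxra, Ppara and Ucp2; the line is the mean and the bar the standard deviation of 6 mice. Hypoxia TAC mice reach 406 CPM for Slc27a1 and 51.0 CPM for Cpt1a, while both genes are lower in normoxia TAC and in hypoxia sham than in normoxia sham.

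The promoter windows of these 2 genes are shown because they are the members whose TAC response differed, and that of Ucp3 because it had the largest fall. Each is RefSeq sequence of build GRCm38.p6, 250 bases before to 50 bases after a gene start, all on the plus strand; the counts themselves were made on GRCm39. Slc27a1 has 3 such windows, on chromosome 8, and the one printed, chr8:71570344-71570643, is the only one of them with a hit. Capitals mark the E-box CACGTG, the palindrome that clock and other bHLH factors bind. In Cpt1a (chr19:3323051-3323350) and Ucp3 (chr7:100472741-100473040) capitals mark AGGTCA, the half-site of PPAR with RXR and of other nuclear receptors, which in Cpt1a lies on the minus strand and reads TGACCT.
Slc27a1: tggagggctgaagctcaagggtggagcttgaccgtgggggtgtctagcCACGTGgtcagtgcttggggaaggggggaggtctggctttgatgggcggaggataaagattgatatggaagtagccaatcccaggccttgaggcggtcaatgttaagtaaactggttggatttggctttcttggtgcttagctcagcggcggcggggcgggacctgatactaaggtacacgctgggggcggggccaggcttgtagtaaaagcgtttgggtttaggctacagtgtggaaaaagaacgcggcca
Cpt1a: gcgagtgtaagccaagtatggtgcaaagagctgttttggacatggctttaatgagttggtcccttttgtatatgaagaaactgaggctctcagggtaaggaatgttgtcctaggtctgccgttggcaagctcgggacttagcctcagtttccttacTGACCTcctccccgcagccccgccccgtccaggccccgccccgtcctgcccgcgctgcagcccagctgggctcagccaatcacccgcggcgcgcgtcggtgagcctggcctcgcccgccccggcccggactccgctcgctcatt
Ucp3: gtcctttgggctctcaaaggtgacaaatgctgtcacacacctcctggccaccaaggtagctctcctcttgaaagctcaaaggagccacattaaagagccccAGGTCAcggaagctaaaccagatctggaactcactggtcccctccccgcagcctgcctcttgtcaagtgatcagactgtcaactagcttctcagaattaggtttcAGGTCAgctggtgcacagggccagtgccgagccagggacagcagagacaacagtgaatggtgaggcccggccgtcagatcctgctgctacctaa
Over the 39 members with an entry, 44 windows were searched on both strands. AGGTCA was in 11 of them (25.0%), against 16.3% of all 32851 windows. The direct repeat AGGTCANAGGTCA, the half-site repeated 1 base apart in its exact letters, was in none, against 0.0396% of all. The estrogen-related receptor letters TCAAGGTCA, which contain the half-site, were in none, against 0.423%. At shares this small, 44 windows were too few to expect a match, so these absences say nothing about the members. CACGTG was in 2 (4.55%), those of Slc27a1 and Plin2, against 7.15%; ACGTG, the core that hypoxia-inducible factors bind and that is contained in CACGTG, was in 6 (13.6%) against 19.6%. A match in such a window describes its letters and shows no binding.

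The interaction was above 0 in 31 of 47 members, with a median log2 difference of 0.20 against -0.04 over all genes. Pnpla2 came closest of the rest, with 1.20 ± 0.33, adjusted p = 0.0533, then Esrra (0.56 ± 0.16, adjusted p = 0.0624), Rxra (0.62 ± 0.20, adjusted p = 0.0861), Acot2 (0.64 ± 0.21, adjusted p = 0.0912) and Slc25a20 (0.45 ± 0.15, adjusted p = 0.0923). All 6 regulators were above 0 (log2 0.18 to 1.02), while in beta-oxidation 10 of 15 were, with log2 differences from -0.12 to 0.50. Over all 47 members, the log2 changes of TAC in the separate mice of both oxygen conditions had a Pearson correlation of 0.30 across genes, against 0.60 over the 15027 genes; genes of 1 library are not independent.

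The third comparison asked what hypoxia did without TAC. In the model of all 24 libraries none of the 47 members was called, and of all genes 0.0865% were called higher and 0.0799% lower. Unadjusted, 14 members had p under 0.05, 12 of them lower, against 1202 of all 15027 genes, and DESeq2 called 1 member lower. Without normoxia TAC 2 there were 2 lower calls, and without normoxia TAC 1, 4 or 5 or hypoxia TAC 2 or 3 there was 1. Still, 37 of 47 members had a log2 change below 0, the median was -0.21 against -0.000537 over all genes, and in 15 members (31.9%) the 6 hypoxia sham mice did not overlap the 6 normoxia sham mice, against 5.02% of all genes. All 15 members of beta-oxidation, all 5 of the carnitine shuttle, all 3 thioesterases and both malonyl-CoA genes lay below 0. Acot2 came closest, with -0.68 ± 0.15, adjusted p = 0.0556.

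The shared model takes its spread from the TAC mice too, which varied more. Fitted on the 12 sham libraries alone, 26 members were called lower and 2 higher. In that fit, 4.93% of 14409 genes were called lower and 6.57% higher. The standard error was smaller in the sham-only fit for all 47 members. The 26 were 11 of 15 genes of beta-oxidation, 3 of 5 of the carnitine shuttle, 3 of 6 regulators, 2 of 3 thioesterases, both malonyl-CoA genes, 2 of 3 lipid droplet genes, 2 of 5 uptake genes and 1 of 4 genes of fuel choice and uncoupling.

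**Figure D4:**
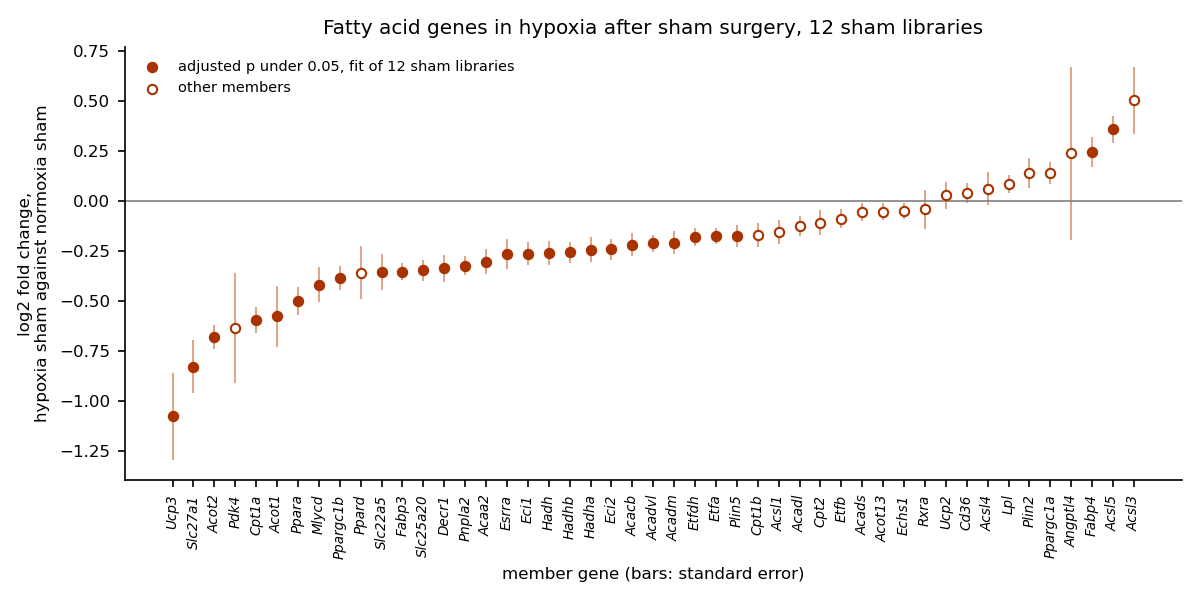
Log2 fold change of hypoxia sham against normoxia sham for the 47 members, in order of size, from the fit of the 12 sham libraries; bars are standard errors and filled points passed the adjusted p of 0.05. Of the 28 filled points, 26 lie below 0, from Ucp3 at -1.08 to Plin5 at -0.18.

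Ucp3 had the largest difference, with 84.9 to 201 CPM (median 119.6) in normoxia sham mice and 45.7 to 73.4 CPM (median 59.02) in hypoxia sham mice. The groups lay apart, and the log2 change in the sham-only fit was -1.08 ± 0.22, adjusted p = 0.0107. Slc27a1 was at 168 to 274 CPM (median 235) in normoxia sham mice and 102 to 153 CPM (median 135) in hypoxia sham mice, again apart, with -0.83 ± 0.13, adjusted p = 0.00235 in that fit. Acot2 was at 180.3 to 227 CPM (median 186) in normoxia sham mice and 109 to 137 CPM (median 121) in hypoxia sham mice, apart, with -0.68 ± 0.06, adjusted p = 2.52e-06. Cpt1a was at 37.9 to 43.8 CPM (median 40.4) in normoxia sham mice and 25.1 to 31.4 CPM (median 26.2) in hypoxia sham mice, apart, with -0.59 ± 0.07, adjusted p = 2.55e-05. Ppara, the receptor itself, was at 101 to 146 CPM (median 139) in normoxia sham mice and 89.9 to 96.9 CPM (median 94.8) in hypoxia sham mice, apart, with -0.50 ± 0.07, adjusted p = 0.000212. These 5 genes of uptake, entry, thioester release, uncoupling and control were thus lower in each hypoxia sham mouse than in each normoxia sham mouse. Fabp3 was at 3004 to 3221 CPM (median 3100.0) in normoxia sham mice and 2295 to 2597 CPM (median 2379.8) in hypoxia sham mice, apart, with -0.36 ± 0.04, adjusted p = 3.44e-05, while Cd36 was at 2479.6 to 2764 CPM (median 2533) in normoxia sham mice and 2311 to 2837 CPM (median 2685) in hypoxia sham mice, with 0.04 ± 0.05, adjusted p = 0.686. Fabp4 and Acsl5 were the 2 called higher in that fit, with 0.24 ± 0.07, adjusted p = 0.0462 and 0.36 ± 0.07, adjusted p = 0.00192.

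Enzymes of beta-oxidation moved by smaller amounts. Hadha was at 1036 to 1459.7 CPM (median 1200.3) in normoxia sham mice and 941 to 1095 CPM (median 1023) in hypoxia sham mice, with overlap and -0.24 ± 0.06, adjusted p = 0.0171 in the sham-only fit. Acadm was at 2007 to 2574 CPM (median 2174) in normoxia sham mice and 1760.1 to 2093 CPM (median 1885) in hypoxia sham mice, with overlap and -0.21 ± 0.06, adjusted p = 0.0199. Decr1, the reductase for unsaturated chains, had the most negative value of the 15, -0.34 ± 0.07, adjusted p = 0.00414. Pdk4 spread widely in both groups, at 157 to 469.6 CPM (median 340.5) in normoxia sham mice and 129 to 279.9 CPM (median 223) in hypoxia sham mice, and was not called (-0.64 ± 0.27, adjusted p = 0.172). Cpt1b (-0.17 ± 0.06, adjusted p = 0.0718), Acsl1 (-0.16 ± 0.06, adjusted p = 0.0984) and Ppargc1a (0.14 ± 0.05, adjusted p = 0.099) were not called either.

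The sham groups also differed in the clock genes, of which 1 was called higher and 4 lower in the model of all libraries; in 11 of 13 the groups lay apart, and the sum was 337 to 401 CPM in hypoxia sham against 564 to 723 in normoxia sham. Endothelial markers summed to 1120 to 1304 CPM in hypoxia sham against 903 to 1006, and cardiomyocyte markers to 85037 to 90452 against 85354 to 93280. Macrophage and monocyte markers summed to 331 to 426 against 264 to 331, and red cell markers to 1072 to 2245 against 642 to 1333. Fibroblast markers summed to 3563 to 4150 against 3159 to 3590. The groups lay apart in 3 of 10 endothelial, 3 of 8 fibroblast and 1 of 12 macrophage and monocyte markers, against 5.02% of all genes. They lay apart in no cardiomyocyte or red cell marker. The model of all libraries called none in these lists, and none of the 47 members either. The marker lists were not counted in the sham-only fit. Of 7 glucocorticoid-induced genes 1 was called lower. Their part in the members' differences was not tested, and the hour of harvest is not given in the labels.

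**Figure D5:**
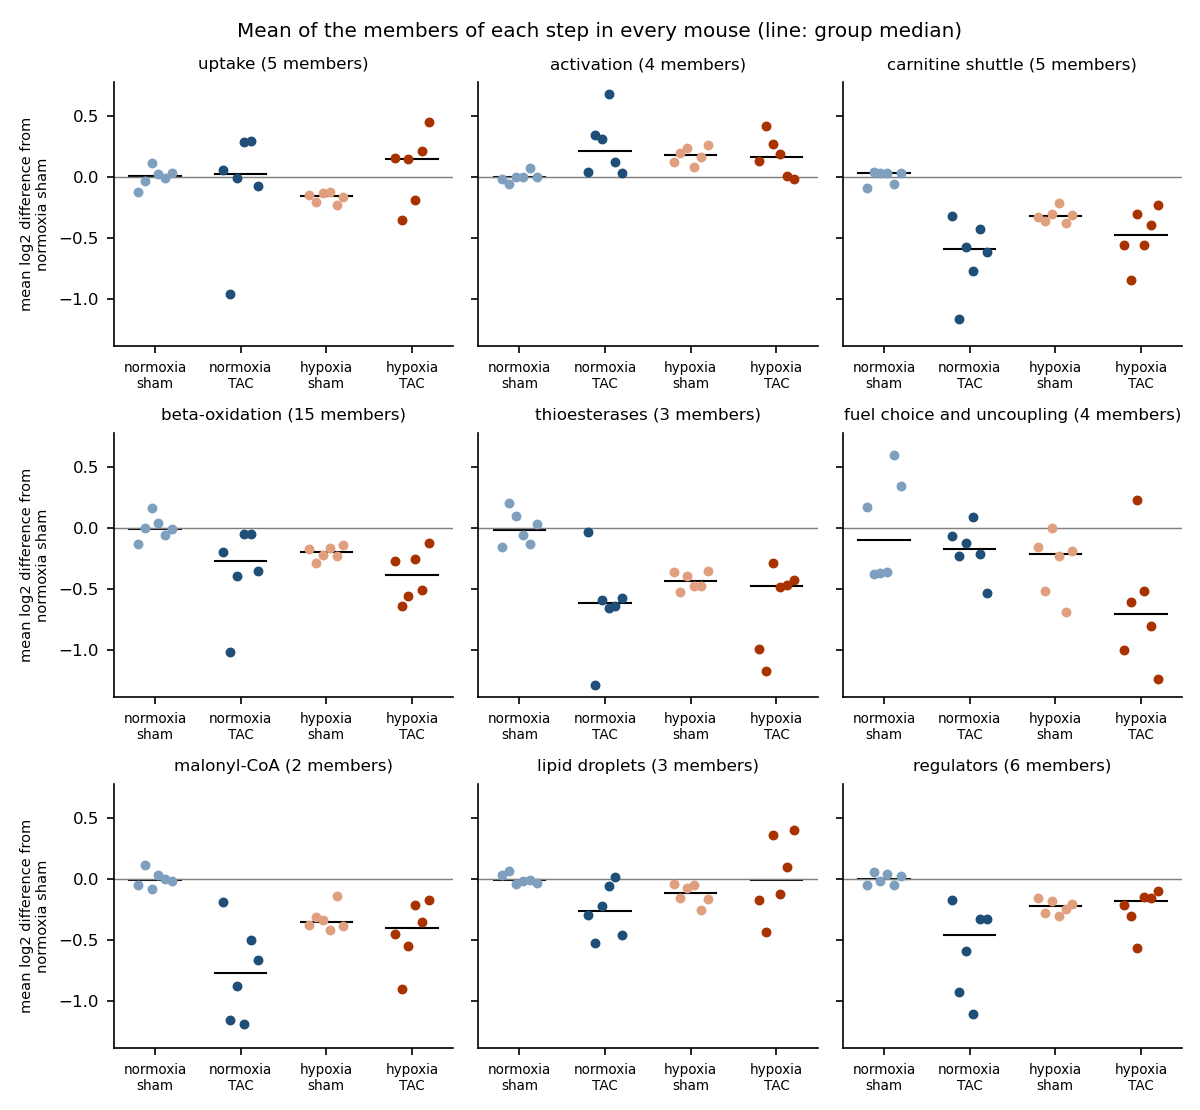
Mean over the members of each step of the log2 level minus the normoxia sham mean, in every mouse; the line is the group median. For beta-oxidation the hypoxia sham mice lie between -0.29 and -0.14 and the normoxia TAC mice between -1.01 and -0.05, with mouse 2 lowest; for uptake the normoxia TAC mice lie between -0.96 and 0.29.

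The fourth comparison set hypoxia TAC against normoxia TAC. It shares groups with the first 2 comparisons and is not independent of them. Of the members 5 were called higher and 2 lower. Of all genes, 4.66% were called higher and 6.41% lower. No member, and 1.46% of all genes, had groups that did not overlap, and the median log2 change was 0.03 against -0.02. Fitted on the 12 TAC libraries alone, no gene of 14267 was called (0% higher and 0% lower). The 7 calls were therefore made only with the spread shared over 4 groups. In the fit of the 12 TAC libraries, 6 of 47 members had an unadjusted p under 0.05, against 2364 of all genes (16.6%). The share of the members was not above that of all genes. Without hypoxia TAC 6 there was 1 higher call, without normoxia TAC 2, 4 or 6 or hypoxia TAC 1 or 5 there were 3, without normoxia TAC 2 there were 7 lower calls and without hypoxia TAC 4 there were 4. With cardiomyocyte scaling Pnpla2 alone of the 7 kept its call, without the low-count filter Slc27a1, Pdk4 and Fabp3 lost theirs, and library totals ended that of Fabp3. Over all genes 963 were lower and 700 higher, against 429 and 1050 with library totals.

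Pnpla2 had the largest increase. It was at 105 to 311 CPM (median 222) in normoxia TAC mice and 218 to 769 CPM (median 363) in hypoxia TAC mice, and the log2 change was 0.87 ± 0.23, adjusted p = 0.0207. Without hypoxia TAC 6, the mouse with the highest level, the change was 0.59 with an adjusted p of 0.0643. Slc27a1 was higher by 0.80 ± 0.25, adjusted p = 0.0404, a call lost without any 1 of 8 libraries (normoxia TAC 2, 3, 4 and 6, hypoxia TAC 1, 3, 5 and 6; log2 change down to 0.55 and adjusted p up to 0.128) and with the replicate block (0.0602). Cpt1a was higher by 0.58 ± 0.18, adjusted p = 0.0349, lost without any 1 of normoxia TAC 2 and 4 or hypoxia TAC 1, 3, 5 and 6 (adjusted p up to 0.0874). Rxra was at 10.99 to 15.5 CPM (median 11.4) in normoxia TAC mice and 13.3 to 22.3 CPM (median 19.9) in hypoxia TAC mice. Its log2 change of 0.58 ± 0.14, adjusted p = 0.0137 held without each of the 24 libraries. Ucp2 was higher by 0.54 ± 0.15, adjusted p = 0.027, lost without normoxia TAC 6 or hypoxia TAC 6 (adjusted p up to 0.0665).

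Pdk4 and Fabp3 were lower in hypoxia TAC. Pdk4 was at 188 to 877 CPM (median 252) in normoxia TAC mice and 87.8 to 252 CPM (median 155) in hypoxia TAC mice, a log2 change of -1.19 ± 0.35, adjusted p = 0.0309. Without normoxia TAC 4 the change shrank to -0.72 with an adjusted p of 0.125, and the call was also lost without hypoxia TAC 1 or 5 and with the replicate block (0.0626). Fabp3, with 29.2% of its windows shared with Fabp3-ps1, was at 2206 to 4042 CPM (median 3229.6) in normoxia TAC mice and 2119 to 2813 CPM (median 2585) in hypoxia TAC mice, a log2 change of -0.33 ± 0.10, adjusted p = 0.0398, which lost its call without any 1 of 20 libraries (adjusted p up to 0.107; it kept it without normoxia TAC 2 or 3 or hypoxia sham 4 or hypoxia TAC 4) and with the replicate block (0.0549). None of the 15 genes of beta-oxidation was called, with log2 changes from -0.39 to 0.19. Of 10 endothelial markers 5 were called higher in hypoxia TAC than in normoxia TAC (798 to 1106 CPM against 745 to 848), 3 of 12 macrophage and monocyte markers lower (280 to 804 against 399 to 1097), 3 of 7 glucocorticoid-induced genes higher (606 to 1634 against 441 to 1053) and 3 of 13 clock genes higher (394 to 513 against 341 to 481). Of 6 stress genes 2 were called lower (1942 to 12254 CPM against 3873 to 22151) and 2 of 7 red cell markers higher (1390 to 5525 against 435 to 4154). The mitochondrial ribosomal RNAs took 2.03% to 3.92% of counts in hypoxia TAC and 3.98% to 5.72% in normoxia TAC, without overlap. Of all genes, 4.66% were called higher and 6.41% lower. The part of the marker and ribosomal RNA differences in the members' changes was not tested.

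The wider fatty acid pathway was followed in 115 other genes in 8 lists, and the totals below cover 99 of those that passed the filter. Nr1d1, which is also a clock gene, passed too. It is in the count of other regulators but not in these totals. With TAC in normoxia 24 of the 99 were called lower and 5 higher, where 10.6% of all genes were called lower and 16.8% higher. Peroxisomal oxidation, which shortens chains too long for mitochondria, had 7 of 15 genes lower and none higher, among them Abcd3, a peroxisomal transporter (-0.62 ± 0.13, adjusted p = 0.00133), and Hsd17b4, a multifunctional enzyme of this route (-0.45 ± 0.10, adjusted p = 0.00227). Triglyceride and lipid droplet genes had 7 of 17 lower and 1 higher, with Gpam, which starts glycerolipid synthesis, at -0.88 ± 0.17, adjusted p = 0.000826, and the lipase Lipe at -0.63 ± 0.16, adjusted p = 0.00507. Other mitochondrial oxidation genes had 5 of 17 lower and 1 higher, with Crat, the carnitine acetyltransferase, at -0.63 ± 0.10, adjusted p = 0.000287. Other PPAR targets had 3 of 5 lower, with the mitochondrial CoA carrier Slc25a42 at -1.42 ± 0.23, adjusted p = 0.000273. Other regulators had 2 of 22 lower and 1 higher, the hypoxia factor Hif1a at 1.01 ± 0.24, adjusted p = 0.00378, fatty acid synthesis 2 of 10 higher with the desaturase Scd1 at 1.26 ± 0.26, adjusted p = 0.00168, and other transport genes none of 9.

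In hypoxia 5 of these 99 genes were called lower with TAC and 8 higher, shares near those of all genes (4.68% and 6.46%). Triglyceride and droplet genes had 4 higher and none lower there, among them Dgat1, which completes triglyceride synthesis (0.72 ± 0.17, adjusted p = 0.012), and Lipe (0.49 ± 0.15, adjusted p = 0.0436). Gpihbp1, which holds lipoprotein lipase on the vessel wall, rose by 0.98 ± 0.18, adjusted p = 0.0028. Of the 99, 5 passed the interaction, each upward (1.12% of all genes were called upward), among them Lipe (1.12 ± 0.22, adjusted p = 0.0173), Slc25a42 (1.24 ± 0.32, adjusted p = 0.0446) and Gpihbp1 (0.99 ± 0.25, adjusted p = 0.0427). Hypoxia after sham surgery gave no call among them in the model of all libraries, and hypoxia after TAC gave 13 higher and 3 lower, against 4.66% and 6.41% of all genes.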

How the data were processed

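RNA from the heart apex of 24 mice was sequenced. The authors deposited 1 table of whole-number read counts, a row for each symbol, with no normalization. The submitters' processing notes name STAR 2.7.3a, bcl2fastq 2.20.0.422, build GRCm39 and, from Subread 2.0.0, featureCounts; settings, annotation and strand are not given in the sources used here, so overlapping genes and near-identical copies could not be told apart. Groups and replicate numbers came from sample titles.

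In R 4.3.3, edgeR 4.0.16 (filterByExpr with minimum count 10 and minimum total 15, TMM, robust quasi-likelihood F test) fitted 1 mean per group to the 24 libraries, with 20 residual degrees of freedom and 5 contrasts. Calls were made at a Benjamini-Hochberg adjusted p under 0.05 over 15027 genes. The standard error of a log2 change is its size divided by the square root of F. CPM are TMM-scaled and not divided by gene length, so levels are compared between groups and not between genes. Averaged over genes, counting error was smaller than the spread between mice of a group. It was not compared with that spread for each member, and the smallest member count was 22 reads. Alternatives were RLE scaling, library totals, scaling to cardiomyocyte markers, DESeq2 1.42.0, no filter, fits of 2 groups, a replicate block and each library left out. The scaling to cardiomyocyte markers used the listed markers without Myh6.

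The members, lists and tests were chosen with earlier results of these data known. Every called member may be named; a panel of 19 members is described whatever its result, and of other pathway genes at most 4 per list with the smallest p. Equal replicate numbers were not treated as pairs. No 2 libraries of a group agreed within sampling noise (mean chi-square per gene at least 3.62 over 60 pairs). Promoter windows were matched by symbol for 39 of 47 members; the rest were not searched. Shared sequence was counted in 50-base windows of GENCODE transcripts of build GRCm38. Results of some other pathway genes are not reported here.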

Additional observations from a re-analysis of the deposited data

Results flagged for a closer look

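In each group of 6 mice, a mouse whose gap to its nearest neighbour was a large share of the group's range was set aside for a closer look (Dixon's test). Chance flags about 1 in 20 groups, and 16 of 188 were flagged. Normoxia TAC mouse 2 accounted for 6: it was lowest for Fabp4 (150.7 CPM), Acsl1 (331 CPM), Acadl (446 CPM), Hadha (483 CPM) and Eci2 (89.0 CPM) and highest for Ppard (13.8 CPM), where the nearest mice were at 539.8, 597, 1094, 774, 150.7 and 7.46 CPM. Normoxia TAC mouse 4 was highest for Pdk4 (877 CPM). Hypoxia TAC mouse 3 was highest for Acsl4 (51.0 CPM) and Angptl4 (54.5 CPM) and lowest for Esrra (27.6 CPM), mouse 4 was highest for Cpt2 (284 CPM), and mouse 2 lowest for Slc25a20 (248 CPM). Normoxia sham mouse 3 was highest for Cpt2 (473 CPM) and Acads (293 CPM), normoxia sham mouse 5 lowest for Ppara (100.7 CPM), and hypoxia sham mouse 5 lowest for Acadl (1091 CPM).

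The TAC response differed between oxygen conditions for Slc27a1, by 1.63 on the log2 scale, and for Cpt1a, by 1.18.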

How the results depend on the processing

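No called change of a member reversed its direction under the alternatives run; uncalled ones did, among them Fabp3, Fabp4, Pdk4 and Ucp2 with library totals and TAC in normoxia, and Echs1 with TAC in normoxia, near 0, turned sign with library totals, with the replicate block and in the fit of 2 groups. TAC in normoxia gave 17 to 29 members called lower across scalings, tools, filter and fits. Library totals gave 1 higher in normoxia (with 29 lower), 4 lower in hypoxia, 1 lower after TAC in the oxygen comparison and 4 higher in the interaction. Cardiomyocyte scaling gave 1 higher with TAC in normoxia, 1 lower with TAC in hypoxia, and 1 higher and 0 lower for oxygen after TAC. DESeq2 gave 4 lower with TAC in hypoxia, 1 lower for oxygen after sham, 5 lower for oxygen after TAC and 5 higher in the interaction. Without the low-count filter there were 1 higher and 1 lower with TAC in hypoxia and 0 lower for oxygen after TAC. Fits of 2 groups gave 2 higher and 17 lower with TAC in normoxia, 1 higher and 4 lower with TAC in hypoxia, 2 higher and 26 lower for oxygen after sham, and 0 and 0 for oxygen after TAC. Leaving out 1 library gave, with TAC in normoxia, 1 to 4 higher and 19 to 24 lower; with TAC in hypoxia, 0 to 3 higher and 1 to 5 lower; for oxygen after sham, 0 to 2 lower; for oxygen after TAC, 1 to 7 higher and 0 to 7 lower; and in the interaction, 2 to 11 higher and 0 to 1 lower.

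With the replicate block, TAC in normoxia gave 24 lower, TAC in hypoxia 1 higher and oxygen after TAC 0 lower and 4 higher. Equal numbers showed mean correlations of -0.08 to 0.09. Of 24 libraries, 8 correlated best with their own number among the 6 replicate numbers, and whether this exceeds chance was not tested. The median log2 change of all genes with TAC in normoxia was 0.01 under TMM and -0.11 with library totals, and with TAC in hypoxia it was 0.01 and, with cardiomyocyte scaling, 0.13. With library totals 3 of 5 uptake genes lay below 0 with TAC in normoxia, against 1 under TMM. The causes were not tested.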

Other observations

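Single mice were often the extreme of their group. Hypoxia TAC mouse 2 was lowest in 20 of the 47 members and mouse 6 highest in 21. In the sham groups, normoxia mouse 1 was lowest in 18 and mouse 3 highest in 20, and hypoxia mouse 2 was lowest in 18. The mean log2 difference of the beta-oxidation members from normoxia sham was -0.64 in hypoxia TAC mouse 2 and -0.12 in mouse 6.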
